A study of Mus musculus with 6 samples.

Results

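The 7 genes described here, Trp63, Sox9, Tbx3, Runx1, Tfap2a, Tfap2c and Klf5, encode transcription factors with known roles in the lineages of the mammary epithelium. They were chosen by name, and all 7 were among the 11417 genes of the deposited table. The RNA, selected for poly(A), came from BC44, HC11 and C57MG, which are 3 established lines of epithelial cells from the mouse mammary gland, with 2 libraries per line and 6 in all. All cells were untreated, were grown on plastic and were harvested 2 days after plating. Serum was at 10% for each line. The BC44 medium was RPMI1640 with insulin at 5 µg/ml, to which EGF (epidermal growth factor) at 10 ng/ml was added for HC11. The C57MG medium was DMEM, with insulin at 10 µg/ml. Line and medium cannot be told apart, and each line stands for 1 culture history and not for a cell type of the gland.

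The mammary ducts hold an outer basal layer, whose cells contract around an inner luminal layer. p63, the product of Trp63, is a member of the p53 family that basal cells need to keep their identity, while SOX9, TBX3, RUNX1, the AP-2 factors (Tfap2a and Tfap2c) and KLF5 act in progenitor, luminal or both compartments. A line that expresses such a factor has its messenger RNA, which says nothing of its protein or of its binding to DNA.

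Levels are in RPKM, read numbers scaled by the length of the gene and the depth of the library, as computed by the authors, with 1 value per gene and library. Depth was estimated from the spacing of low values at 14160000 to 18540000 reads per library. The labelled cell type was checked on marker genes. The 3 listed epithelial markers Epcam, Cdh1 and Esrp1 summed to 259.4 to 307.8 RPKM in BC44 and 307.6 to 391.3 in HC11. In C57MG they summed to 2.477 RPKM in replicate 1 and were all listed at 0 in replicate 2, so these defining epithelial markers were absent or nearly so. Fibroblast markers (8 of 9 listed) summed to 3312 to 3654 RPKM in C57MG, 252.5 to 294.5 in BC44 and 207.1 to 293.8 in HC11. Vim made up most of that sum in C57MG, at 2707.846 and 2282.473 RPKM. Fn1 made up most of it in BC44 and HC11, at 179.594 to 260.625 RPKM. Col1a1, Col1a2, Col3a1, Pdgfra and Pdgfrb were also highest in C57MG. Dcn went the other way, at 0 in every C57MG and BC44 library and at 1.679 and 3.784 RPKM in HC11. For the 6 of 9 basal markers in the table the sum was 6388 to 6652 RPKM in BC44, 2890 to 3671 in HC11 and 230.7 to 282.9 in C57MG. The keratins Krt5, Krt14 and Krt17 made up nearly all of that sum in BC44 and HC11, while 2 genes of contraction went the other way, with Acta2 at 120.5 ± 21.95 RPKM in C57MG, 1.455 ± 0.8089 in BC44 and 0.25 ± 0.3111 in HC11, and Mylk at 18.72 ± 0.3917 in C57MG and at most 0.384 elsewhere (SD, n = 2 each). Tagln, the remaining marker and also a gene of contraction, did not go with Acta2 and Mylk. It was lowest in C57MG, at 0.105 and 0 RPKM, against 0.992 and 0.723 in BC44 and 1.256 and 1.892 in HC11. For the 4 of 9 luminal markers the sum was 1.293 to 2.645 RPKM in BC44, where Krt18 and Prlr were at 0, 292.7 to 362.8 in HC11 and 28.03 to 40.27 in C57MG. In C57MG this was nearly all Areg, at 39.966 and 27.481 RPKM, with the luminal keratins Krt8 at 0.307 and 0.503 and Krt18 at 0 and 0.046. The 1 of 4 immune and 2 of 4 endothelial markers in the table summed to at most 3.302 and 2.377 RPKM in any library. The part of these marker differences in the results below was not tested. C57MG replicate 1 also held a low signal of epithelial genes: 46 genes with at least 20 RPKM in every BC44 and HC11 library, and at most 0.1% of that mean in C57MG replicate 2, were at a median of 0.818% of their BC44 level there (range 0.573% to 1.27%). In BC44 replicate 2, 72 genes private to C57MG were at a median of 2.02% of their C57MG level. They had 20 RPKM or more in C57MG, and no more than 2% of that in HC11 and 5% in BC44 replicate 1, the library not being measured. Genes chosen in the same way were at 0.666% in BC44 replicate 1 (73 genes, 0 of them listed at 0), and at 0.251% and 0.35% in HC11 replicates 1 and 2, where 8 genes were listed at 0 in each.

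Reference promoters were at hand for 2 of the 7 factors, Runx1 and Tfap2a, with 2 start sites for each. They are shown because the table gives 1 value per gene, so the levels below do not tell these starts apart, nor any further start of the gene. The sequences are from RefSeq, build GRCm38.p6, and run from 250 bases before to 50 bases after each start, on the minus strand. Runx1 has a distal start (chr16:92826025-92826324) and a proximal start (chr16:92697280-92697579). Capitals mark the core RUNX motif TGTGGT on either strand.
Runx1 distal: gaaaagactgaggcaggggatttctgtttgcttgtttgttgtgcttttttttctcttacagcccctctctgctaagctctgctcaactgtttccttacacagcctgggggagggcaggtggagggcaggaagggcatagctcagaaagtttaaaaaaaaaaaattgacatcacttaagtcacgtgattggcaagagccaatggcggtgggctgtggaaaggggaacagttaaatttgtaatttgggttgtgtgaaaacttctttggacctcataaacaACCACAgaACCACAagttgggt
Runx1 proximal: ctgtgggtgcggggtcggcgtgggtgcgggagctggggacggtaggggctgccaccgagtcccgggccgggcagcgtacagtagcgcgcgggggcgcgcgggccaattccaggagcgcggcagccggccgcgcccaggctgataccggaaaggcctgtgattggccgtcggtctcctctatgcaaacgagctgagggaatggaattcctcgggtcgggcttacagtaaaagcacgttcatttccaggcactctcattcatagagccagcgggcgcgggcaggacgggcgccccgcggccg
The distal window held the RUNX motif 2 times and the proximal window 0 times, and 16.8% of 32851 promoter windows held it. The windows differed in composition, with 45.0% GC and 2 CpG dinucleotides in the distal one and 69.0% GC and 35 CpG in the proximal one. The 2 Tfap2a windows lie at chr13:40734871-40735170 and chr13:40733746-40734045. Capitals mark the GC box GGGCGG on either strand, the kind of site that KLF and Sp factors bind.
Tfap2a upstream: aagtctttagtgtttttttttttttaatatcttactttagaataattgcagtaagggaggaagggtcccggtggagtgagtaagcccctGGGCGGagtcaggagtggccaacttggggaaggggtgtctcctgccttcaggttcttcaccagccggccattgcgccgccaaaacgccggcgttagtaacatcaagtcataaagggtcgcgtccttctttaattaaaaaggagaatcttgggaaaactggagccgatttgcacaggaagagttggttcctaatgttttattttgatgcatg
Tfap2a downstream: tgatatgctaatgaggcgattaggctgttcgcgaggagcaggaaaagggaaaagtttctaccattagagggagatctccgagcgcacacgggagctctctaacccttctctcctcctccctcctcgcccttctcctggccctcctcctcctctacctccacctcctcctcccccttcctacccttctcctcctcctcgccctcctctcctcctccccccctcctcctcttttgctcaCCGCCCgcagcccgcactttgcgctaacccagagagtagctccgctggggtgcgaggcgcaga
Each Tfap2a window held 1 GC box, which 35.7% of all windows hold. Neither Tfap2a window held the AP-2 motif GCCNNNGGC (16.6% of all windows), and the Runx1 distal window held it 1 time. None of the 4 windows held the GRHL motif AACCGGTT, which 0.146% of all windows hold, and motifs were searched on both strands. These matches describe letters and do not show binding.

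Across lines, Klf5 and Tfap2c were all but missing in C57MG, Trp63 and Sox9 were lower there but present, and Tbx3, Runx1 and Tfap2a were within about a doubling of each other in every pair of lines. All 7 factors had their lowest mean in C57MG. BC44 had the highest mean of Trp63, Tfap2a, Tfap2c and Klf5, and HC11 that of Sox9, Tbx3 and Runx1. In bulk RNA, fewer cells with a transcript and less transcript per cell cannot be told apart. Gene positions below are from GENCODE M21 on build GRCm38, while the submitters' processing notes name mm9.

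**Figure D1:**
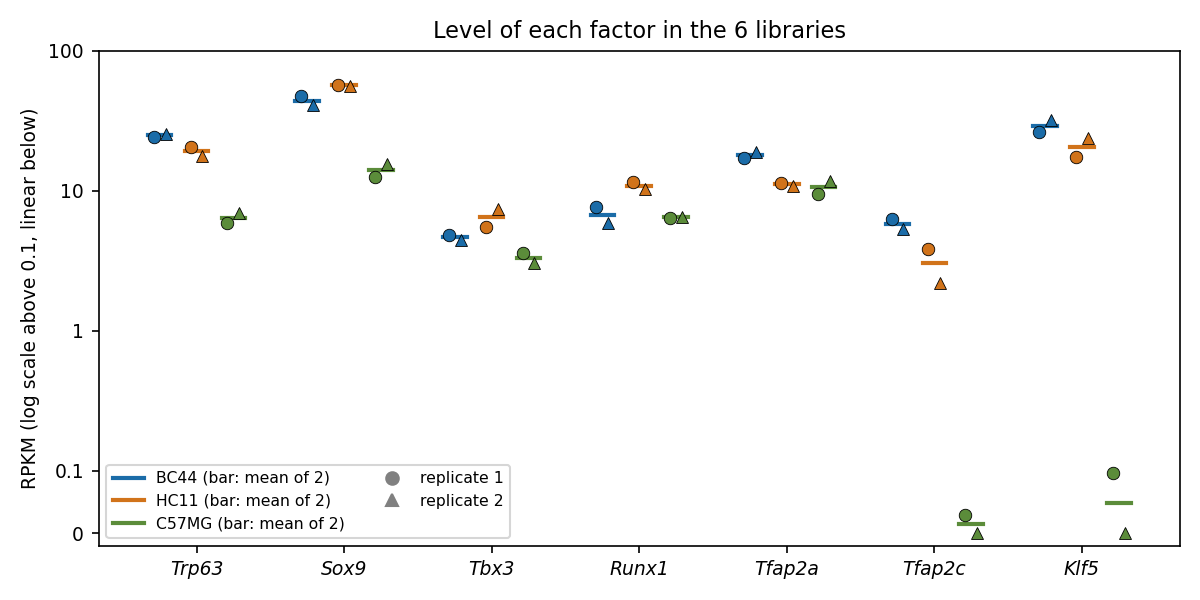
Level of the 7 factors in RPKM (y axis, log scale above 0.1 and linear below) in each library. Points are single libraries, circles replicate 1 and triangles replicate 2, and bars are means of 2. Klf5 and Tfap2c sit at or below 0.096 RPKM in C57MG, while the other 5 factors stay above 3 RPKM in every library.

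Klf5 (ENSMUSG00000005148, chromosome 14, 99298691 to 99315036, plus strand) encodes a zinc finger factor of proliferating epithelia that binds GC-rich sites. It was at 26.308 and 31.802 RPKM in the libraries of BC44 (replicates 1 and 2), 17.427 and 23.967 in those of HC11, and 0.096 and 0 in those of C57MG. The 2 C57MG libraries were far below all 4 others. Among all listed genes Klf5 stood between the 66.8 and the 80.5 percentile in BC44 and HC11, and at the 6.26 and 2.73 percentile in C57MG. Their level rested on an estimated 9 and 0 reads, against 1977 and 2883 in BC44 and 1680 and 1765 in HC11. From the pooled estimated reads, Klf5 was 566 times as high in BC44 as in C57MG (95% exact binomial interval 298 to 1240) and 391 times as high in HC11 (206 to 856), intervals that cover counting error only. Klf5 in C57MG replicate 1 was at 0.33% of its BC44 mean, a value that rests on those 9 reads. Its relation to the low signal of the 46 epithelial genes described above was not tested.

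Tfap2c (ENSMUSG00000028640, chromosome 2, 172549593 to 172558622, plus strand) encodes AP-2 gamma, a factor of luminal and progenitor cells. It was at 6.265 and 5.359 RPKM in the libraries of BC44, 3.864 and 2.201 in those of HC11, and 0.03 and 0 in those of C57MG. Again the C57MG libraries stood far below the rest, and the HC11 pair was spread more widely than the BC44 pair. The C57MG values came to an estimated 2 and 0 reads, with 0.045 and 0.0533 RPKM as the level of 3 reads. The ratio of pooled estimated reads to C57MG was 355 for BC44 (95% exact binomial interval 97.9 to 2940) and 194 for HC11 (53.2 to 1610). Tfap2c in C57MG replicate 1 was at 0.516% of its BC44 mean.

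Tfap2a (ENSMUSG00000021359, chromosome 13, 40715302 to 40738376, minus strand) encodes AP-2 alpha, the paralogue of AP-2 gamma. Like Tfap2c it was higher in BC44 than in HC11, but unlike Tfap2c it was present in C57MG. Its level was 17.125 and 18.803 RPKM in the libraries of BC44, 11.44 and 10.782 in those of HC11, and 9.521 and 11.66 in those of C57MG. BC44 was above all other libraries, and the HC11 values lay between the C57MG values. Among the AP-2 genes listed, which also include Tfap2b, Tfap2a therefore held 99.8% ± 0.212 of the summed RPKM in C57MG (SD, n = 2). Its share was 75.5% ± 3.25 in BC44 and 71.2% ± 4.67 in HC11 (SD, n = 2 each). Tfap2b was listed at 0 in all BC44 and C57MG libraries and was at 1.55 and 1.485 RPKM in HC11, where it made up 9.75% ± 0.778 of the sum (SD, n = 2).

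Trp63 (ENSMUSG00000022510, chromosome 16, 25683763 to 25892102, plus strand) encodes p63, and its deposited value pools the long and the amino-terminally shortened transcripts, which start from separate promoters. It was at 24.379 and 25.619 RPKM in the libraries of BC44, 20.515 and 17.766 in those of HC11, and 5.856 and 6.98 in those of C57MG. The lines did not overlap, and C57MG kept a clear signal of an estimated 891 and 896 reads. Its mean RPKM in C57MG was exceeded 3.9 times in BC44 and 2.98 times in HC11, and the ratio of BC44 to HC11 was 1.31. Between the C57MG libraries, replicate 1 had less Trp63 than replicate 2. The part of the low epithelial signal of replicate 1 in its value was not tested.

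Sox9 (ENSMUSG00000000567, chromosome 11, 112782224 to 112787760, plus strand) encodes an HMG-box factor of progenitor cells in the mammary gland and other epithelia. Its level was 47.139 and 40.748 RPKM in the libraries of BC44, 57.061 and 56.255 in those of HC11, and 12.579 and 15.435 in those of C57MG. Sox9 was the most abundant of the 7 factors in each of the 6 libraries, between the 58.3 and the 90.1 percentile of listed genes. The ratio of means was 3.14 for BC44 over C57MG and 4.04 for HC11 over C57MG.

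Tbx3 (ENSMUSG00000018604, chromosome 5, 119670669 to 119684724, plus strand) encodes a T-box repressor needed for the mammary bud to form. The HC11 libraries had 5.56 and 7.467 RPKM, the BC44 libraries 4.87 and 4.454, and the C57MG libraries 3.61 and 3.059, so the lines followed in that order without overlap. Runx1 (ENSMUSG00000022952, chromosome 16, 92601466 to 92826149, minus strand) encodes a DNA-binding subunit that works with CBF beta, the product of Cbfb. Runx1 was at 11.568 and 10.249 RPKM in HC11, 7.64 and 5.911 in BC44, and 6.384 and 6.541 in C57MG. HC11 was above the other 4 libraries, while both C57MG values lay between the BC44 values.

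The order of the factors by level also changed between lines. In BC44 the means were 43.9 ± 4.52 RPKM for Sox9, 29.05 ± 3.885 for Klf5, 25.0 ± 0.877 for Trp63, 17.96 ± 1.187 for Tfap2a, 6.78 ± 1.22 for Runx1, 5.81 ± 0.641 for Tfap2c and 4.66 ± 0.294 for Tbx3 (SD, n = 2 each). Runx1 and Tfap2c were the one pair of neighbours whose libraries overlapped there. In HC11 the order was Sox9 (56.7 ± 0.57), Klf5 (20.7 ± 4.62), Trp63 (19.1 ± 1.94), Tfap2a (11.1 ± 0.465), Runx1 (10.9 ± 0.933), Tbx3 (6.51 ± 1.35) and Tfap2c (3.03 ± 1.18). Klf5 overlapped with Trp63 and Tfap2a with Runx1 in HC11. In C57MG the order was Sox9 (14.0 ± 2.02), Tfap2a (10.6 ± 1.51), Runx1 (6.46 ± 0.111), Trp63 (6.42 ± 0.795), Tbx3 (3.34 ± 0.39), Klf5 and Tfap2c, with overlap of Runx1 and Trp63 and, at or near 0, of Klf5 and Tfap2c. The 7 factors summed to 133.7 and 132.7 RPKM in the libraries of BC44, 127.4 and 128.7 in those of HC11, and 38.08 and 43.67 in those of C57MG.

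Differences between lines were tested as log2(RPKM + 1) with limma over the 10759 genes with at least 1 RPKM in at least 2 libraries, and all 7 factors were among them. A difference was called at a Benjamini-Hochberg adjusted p under 0.05 over all genes. Nothing in the labels says that replicates came from separate cultures, so p-values measure the spread between these libraries, which may be technical.

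Between BC44 and C57MG, 6 of the 7 factors were higher in BC44 and 0 in C57MG. Of all tested genes 71.7% were called, 37.5% as higher in BC44 and 34.1% as higher in C57MG. The libraries of these lines did not overlap for 6 of the 7 factors and for 87.9% of all genes. The log2 difference was 4.84 for Klf5 (SE 0.17, limma adjusted p 3.28e-07), 2.74 for Tfap2c (SE 0.19, 8.93e-06), 1.81 for Trp63 (SE 0.11, 5.15e-06) and 1.59 for Sox9 (SE 0.11, 1.11e-05). Tfap2a was higher by 0.72 (SE 0.12, 0.000887) and Tbx3 by 0.39 (SE 0.15, 0.0448). Runx1 did not pass, with a difference of 0.05 (95% interval -0.26 to 0.36, adjusted p 0.747) that turned to -0.11 without BC44 replicate 1. The median over the 7 factors was 1.59, against 0.04 over all genes, where differences in both directions cancel. With signs left out, the medians were 1.59 and 0.57. The values of Klf5 and Tfap2c depend on the pseudocount and became 7.70 and 5.69 with 0.1 in place of 1. The Tbx3 call was lost with all libraries kept, at a limma adjusted p of 0.0593 with median-ratio scaling and 0.05 without the filter. It was also lost when any of the 4 compared libraries was left out. The Tbx3 difference was then 0.33 and 0.44 without BC44 replicates 1 and 2, and 0.48 and 0.30 without C57MG replicates 1 and 2.

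Between HC11 and C57MG, 6 of 7 factors were higher in HC11 and 0 in C57MG, with 70.5% of all genes called, 37.4% as higher in HC11 and 33.2% as higher in C57MG. Of the factors 6 had libraries that did not overlap, as had 86.2% of all genes. The log2 difference was 4.36 for Klf5 (SE 0.17, limma adjusted p 5.79e-07), 1.96 for Tfap2c (SE 0.19, 6.34e-05), 1.95 for Sox9 (SE 0.11, 4.44e-06) and 1.44 for Trp63 (SE 0.11, 1.99e-05). Tbx3 was higher by 0.78 (SE 0.15, 0.002) and Runx1 by 0.67 (SE 0.13, 0.00248). Tfap2a did not pass, at 0.07 (95% interval -0.20 to 0.34, adjusted p 0.613), and was at -0.06 without C57MG replicate 1. The median over the factors was 1.44, against 0.03 over all genes, and 1.44 against 0.53 with signs left out. With a pseudocount of 0.1, Klf5 and Tfap2c were at 7.20 and 4.73. This comparison and that of BC44 with C57MG share the C57MG libraries.

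Between BC44 and HC11 the differences were small and went both ways. BC44 was higher for 4 factors and HC11 for 2, with 47.7% of all genes called (24.7% toward BC44 and 23.0% toward HC11). All 7 factors had libraries that did not overlap, as had 73.0% of all genes. Toward BC44 the log2 difference was 0.78 for Tfap2c (SE 0.19, limma adjusted p 0.0123), 0.65 for Tfap2a (SE 0.12, 0.00305), 0.48 for Klf5 (SE 0.17, 0.0466) and 0.37 for Trp63 (SE 0.11, 0.0302). Toward HC11 it was -0.62 for Runx1 (SE 0.13, 0.00649) and -0.36 for Sox9 (SE 0.11, 0.0348). Tbx3 was at -0.40 (95% interval -0.74 to -0.05 before adjustment) with an adjusted p of 0.0583, and passed without HC11 replicate 1 (-0.58, 0.0112). The median over the factors was 0.37, against 0.02 over all genes, and 0.48 against 0.30 with signs left out.

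Several calls between BC44 and HC11 were lost under other settings. Tfap2a passed in all 16 alternatives and Runx1 in 15, while Klf5 passed in 6 of 16, and Sox9 and Trp63 in 12 of 16 each. Klf5 had an adjusted p of 0.0674 and 0.239 without BC44 replicates 1 and 2, 0.189 without HC11 replicate 1, and 0.0523 and 0.0521 without C57MG replicates 1 and 2. With all libraries kept, it was at 0.256 with a pseudocount of 0.1, 0.0521 without the filter, 0.052 with quantile normalization and 0.0514 with median-ratio scaling. The log2 difference of Klf5 was between 0.26 and 0.70 over all 16 alternatives. Sox9 was at 0.187 without BC44 replicate 2 and at 0.0896 and 0.0816 without HC11 replicates 1 and 2, where its difference was still -0.35 and -0.37. Trp63 was at 0.0871 and 0.134 without BC44 replicates 1 and 2 and at 0.127 without HC11 replicate 2. Tfap2c was at 0.0841 without BC44 replicate 1. Without BC44 replicate 2 and C57MG replicate 1, the BC44 library with more of the C57MG signal and the C57MG library with more of the BC44 signal, 2 of 7 factors were called between BC44 and HC11, 5 between BC44 and C57MG and 6 between HC11 and C57MG. The calls over all genes fell in the same fit, to 2996, 4875 and 5476, from 5129, 7713 and 7590 with all libraries.

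**Figure D2:**
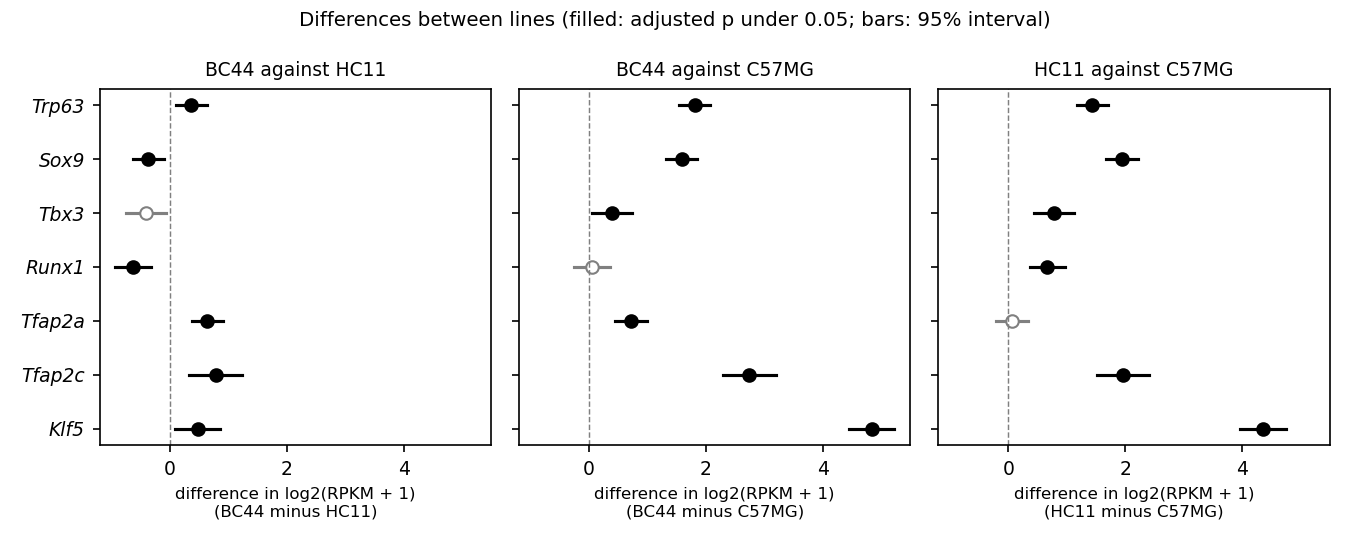
Difference in log2(RPKM + 1) of each factor (x axis) in the 3 pairs of lines, with 95% intervals from limma that are not adjusted for the number of genes. Filled points passed an adjusted p of 0.05. Klf5 lies at 4.84 and 4.36 against C57MG, and the largest difference between BC44 and HC11 is that of Tfap2c at 0.78.

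Related genes and partners of the factors were examined next, from a list of 23 of which 17 were in the table and all 17 were tested. Between BC44 and HC11 16 were called, 10 as higher in BC44 and 6 as lower, with 47.7% of all genes called. Against C57MG 13 were called in BC44, 9 as higher and 4 as lower, and 13 in HC11, again 9 and 4, with 71.7% and 70.5% of all genes called. The median log2 difference of the list was 0.51, 0.72 and 0.41 in the same order.

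The RUNX genes changed their order between lines. Runx3 was at 20.6 ± 2.05 RPKM in BC44 and 12.5 ± 0.175 in HC11 but at 1.06 ± 0.143 in C57MG (SD, n = 2 each). The log2 difference of Runx3 to C57MG was 3.39 in BC44 and 2.72 in HC11 (limma adjusted p 3.01e-07 and 7.48e-07). Runx2, a regulator best known from bone, was at 13.3 ± 1.45 RPKM in C57MG, 12.5 ± 0.00849 in BC44 and 6.95 ± 0.168 in HC11 (SD, n = 2 each). In C57MG Runx2 made up 63.8% ± 2.62 of the summed RUNX RPKM and Runx1 31.1% ± 1.56, while Runx3 led in BC44 with 51.7% ± 4.1 and in HC11 with 41.2% ± 0.707 (SD, n = 2 each). The partner Cbfb was lowest in C57MG at 47.0 ± 0.0877 RPKM, with 106.0 ± 4.21 in HC11 and 151.5 ± 3.94 in BC44 (SD, n = 2 each), and passed in all 3 comparisons.

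Among the other families, Trp73, the gene of the p53 relative p73, was at 3.695 and 4.753 RPKM in BC44, at 0.08 and 0 in C57MG and listed at 0 in both HC11 libraries. It was higher in BC44 than in HC11 by 2.38 (SE 0.12, limma adjusted p 7.09e-06) on the log2 scale. Trp63 made up 42.8% ± 1.41 of the summed RPKM of Trp53, Trp63 and Trp73 in BC44, 25.9% ± 2.47 in HC11 and 15.1% ± 2.19 in C57MG (SD, n = 2 each).

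Sox4 and Sox11, relatives of Sox9 that act in progenitor and embryonic cells, separated BC44 from HC11 in opposite directions. Sox11 was at 51.2 ± 3.73 RPKM in BC44 and 4.12 ± 0.573 in HC11, a log2 difference of 3.35 (SE 0.17, limma adjusted p 7.29e-06). Sox4 was at 7.29 ± 0.26 RPKM in BC44 and 47.9 ± 1.91 in HC11, a difference of -2.56 (SE 0.10, 2.86e-06) (SD, n = 2 each). In C57MG Sox4 was at 2.01 ± 0.26 RPKM and Sox11 at 0.385 and 0. Sox9 therefore held 86.2% ± 4.53 of the sum of these 3 genes in C57MG, against 42.9% ± 1.06 in BC44 and 52.1% ± 0.919 in HC11 (SD, n = 2 each).

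Cited4, a co-activator of AP-2 factors, was at 0.044 and 0 RPKM in C57MG, 11.743 and 4.282 in BC44, and 6.591 and 2.219 in HC11. It was higher than in C57MG by 3.01 in BC44 and 2.27 in HC11 (limma adjusted p 0.000798 and 0.00355), and its replicates differed widely in both lines.

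**Figure D3:**
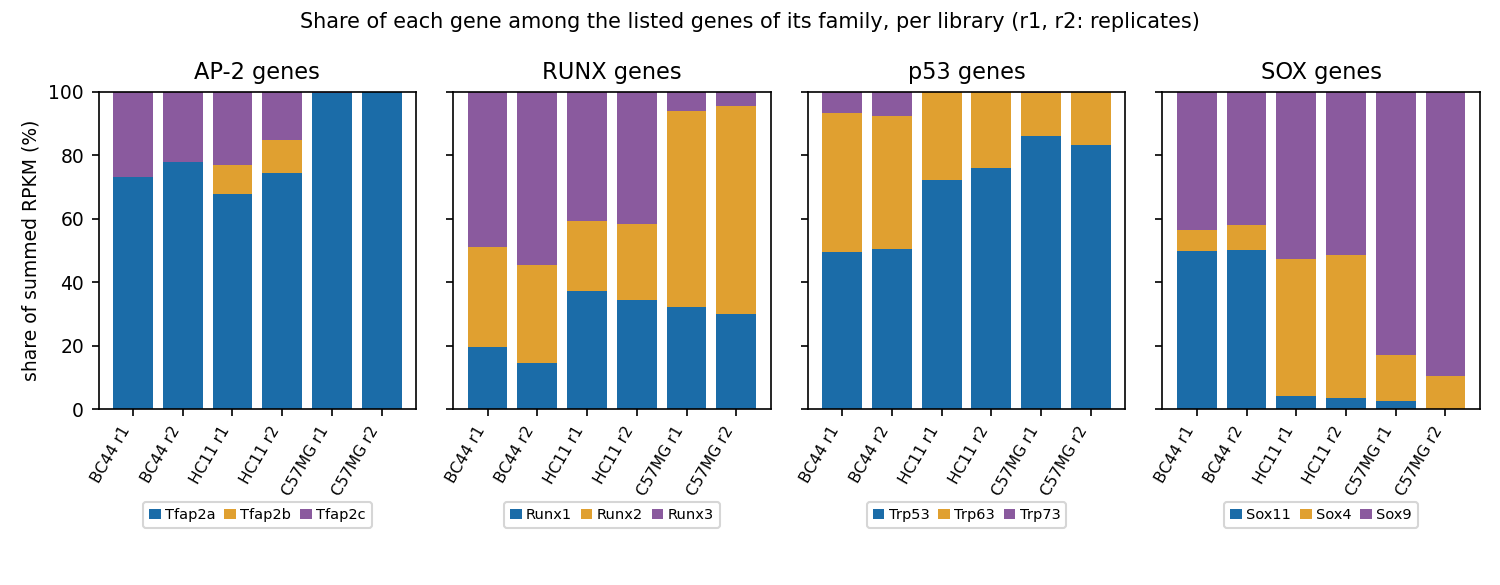
Share of each gene (y axis, % of the summed RPKM of the genes drawn) in each of the 6 libraries, for the AP-2, RUNX, p53 and SOX genes. In C57MG the AP-2 bar is nearly all Tfap2a (99.8%), Runx2 is the largest RUNX gene (63.8%) and Sox9 holds 86.2% of the 3 SOX genes.

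A list of 23 other regulators of mammary lineages had 16 genes in the table and 14 tested, since Esr1 and Bcl11a stayed under the limit. In each pair of lines 12 of the 14 were called, where the shares over all genes were 47.7% between BC44 and HC11, 71.7% between BC44 and C57MG and 70.5% between HC11 and C57MG. The calls were 4 higher and 8 lower in BC44 than in HC11, 5 higher and 7 lower in BC44 than in C57MG, and 4 higher and 8 lower in HC11 than in C57MG. The median log2 difference was -0.48 for BC44 against HC11, and -0.17 and -0.33 for BC44 and HC11 against C57MG. Fewer regulators were called between BC44 and HC11 when any single library was left out. Between HC11 and C57MG, fewer were called without either library of C57MG or of HC11. Between BC44 and C57MG, fewer were called without either BC44 library and without C57MG replicate 2. All 3 comparisons had fewer without both BC44 replicate 2 and C57MG replicate 1. The calls over all genes fell too in these fits, which leave 1 library in at least 1 line.

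Gata3, a master regulator of luminal cells, was at 7.317 and 8.43 RPKM in C57MG, 5.36 and 6.369 in HC11, and 0.034 and 0.086 in BC44. Its log2 difference was -2.69 between BC44 and HC11 and -3.06 between BC44 and C57MG (SE 0.12 each, limma adjusted p 4.24e-06 and 5.5e-07). Bcl11b, a factor of basal and quiescent mammary cells, was at 5.751 and 4.953 RPKM in BC44 and under 0.21 in all other libraries, with a log2 difference of 2.41 to HC11 and 2.63 to C57MG (3.57e-06 and 5.19e-07).

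Ehf and Elf3, ETS-family factors of epithelia, were highest in HC11 and lowest in C57MG. Ehf was at 6.991 and 8.461 RPKM in HC11, 1.116 and 0.966 in BC44, and 0.02 and 0 in C57MG. Elf3 was at 10.688 and 17.797 RPKM in HC11, 6.634 and 4.27 in BC44, and 0.055 and 0.097 in C57MG. HC11 exceeded C57MG by 3.11 for Ehf and 3.78 for Elf3 on the log2 scale (limma adjusted p 5.26e-07 and 7.49e-06). Stat5a, which carries the prolactin signal, ran the other way, at 7.129 and 7.366 RPKM in C57MG against 1.819 and 1.282 in HC11 and 0.825 and 0.386 in BC44. Its log2 difference was -1.70 between HC11 and C57MG (SE 0.16, 5.55e-05).

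The last list, as reported here, held 19 genes known to be controlled by p63 in basal epithelium, mostly keratins, hemidesmosome and adhesion genes, and all 19 were tested. Every one had at least 1 RPKM in all BC44 and HC11 libraries. Between BC44 and C57MG, 16 were called as higher in BC44 and 1, Itga6, in C57MG (71.7% of all genes were called). Between HC11 and C57MG, 15 were called as higher in HC11 and 2, Itga6 and Fgfr2, in C57MG (70.5% of all genes). The median log2 difference of the list was 4.14 and 3.80, against 0.04 and 0.03 over all genes and 1.81 and 1.44 for Trp63 itself. With signs left out, the medians were 4.14 and 3.80 for the list and 0.57 and 0.53 over all genes. Between BC44 and HC11, 9 were called as higher in BC44 and 6 as lower (47.7% of all genes were called), with a median of 0.71. With a pseudocount of 0.1 the 15 calls became 9, while the calls over all genes went from 5129 to 4946. The list holds genes that p63 is known to activate and genes it is known to repress.

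In C57MG, 6 of the 19 genes, Itgb4, Lama3, Jag2, Ripk4, Evpl and Fermt1, were under 1 RPKM in both libraries. Trp63 was at 5.856 and 6.98 there. Other genes of the list were clearly present in C57MG replicates 1 and 2, with Krt14 at 118.034 and 64.751 RPKM and Perp at 167.225 and 149.855. Itga3 was at 108.372 and 119.921 RPKM there, and Itgb1 at 227.249 and 231.173. Cdkn1a was at 24.195 and 28.652, Dst at 11.015 and 12.466 and Lamb3 at 6.3 and 6.85. C57MG replicate 1 was above replicate 2 for 13 of the 19 genes, and 3 genes were listed at 0 in replicate 2. Of all 11417 genes, 622 were listed at 0 in C57MG replicate 2 and 273 in replicate 1. The share of all genes higher in replicate 1 was not computed. Krt5, a keratin of basal cells, had 16.044 and 0.148 RPKM in C57MG replicates 1 and 2, against 2011.895 and 1828.404 in BC44 and 1000.13 and 534.236 in HC11. Its log2 difference was 8.76 for BC44 and 7.37 for HC11 against C57MG (SE 1.05 each, limma adjusted p 0.000175 and 0.00049). Krt5 meets the limits that chose the 46 genes of the low epithelial signal in C57MG replicate 1. It is thus one of the genes that define that signal, and was at 0.836% of its BC44 mean there. The part of the signal in the values of this list was not tested. Leaving out C57MG replicate 1 and BC44 replicate 2 leaves 1 library in each of these lines, so calls from that fit are not given for this list.

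Col17a1, a collagen of the hemidesmosome, was highest in BC44 at 332.2 ± 3.06 RPKM, with 78.2 ± 4.78 in HC11 and 1.79 ± 1.98 in C57MG (SD, n = 2 each). Itgb4, its integrin partner, was highest in HC11 at 188.8 ± 5.23 RPKM, with 74.2 ± 4.0 in BC44 and 0.614 ± 0.449 in C57MG (SD, n = 2 each). Itga6, whose product pairs with that of Itgb4, was at 112.551 and 86.768 RPKM in C57MG and between 13.762 and 16.498 in the other libraries. Fgfr2 and Perp separated BC44 from HC11, with log2 differences of 3.87 and 1.78 (limma adjusted p 1.44e-06 and 1.14e-05). Fgfr2, a receptor for fibroblast growth factors, was at 1.53 ± 0.368 RPKM in HC11, 3.18 ± 0.164 in C57MG and 35.9 ± 1.81 in BC44 (SD, n = 2 each). Sfn and Pkp1, also among the largest differences to C57MG, were higher by 6.31 in BC44 and by 5.91 in HC11 respectively (4.42e-07 and 7.84e-07).

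**Figure D4:**
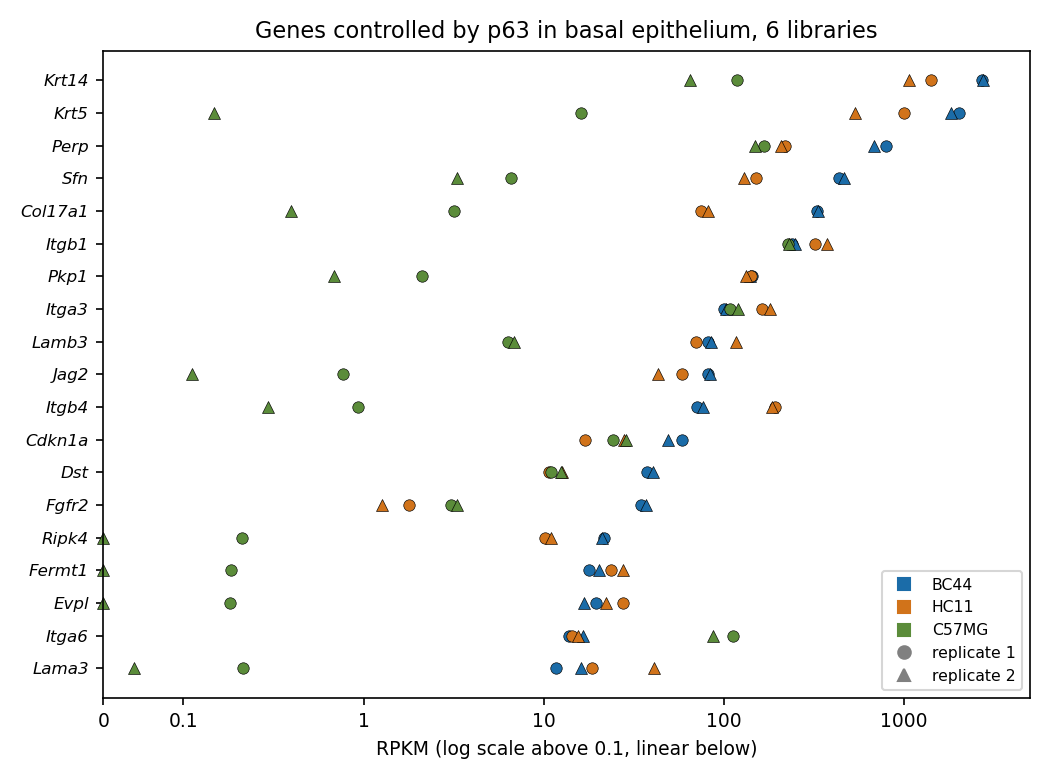
RPKM (x axis, log scale above 0.1 and linear below) of 19 genes known to be controlled by p63, in each of the 6 libraries, circles for replicate 1 and triangles for replicate 2. BC44 and HC11 points lie far to the right of C57MG for most genes, Itga6 is highest in C57MG, and Krt5 is spread from 0.148 to 16.044 RPKM in C57MG.

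The genes nearest in pattern to each factor were found among 4858 tested genes that varied by at least 1 on the log2 scale, by the root mean square difference between centred log2 profiles over the 6 libraries. The nearest to Trp63 were Phldb3 (0.06) and Zfp422 (0.0764), and to Tfap2a Socs7 (0.0505) and Inpp4b (0.061). For Tbx3 they were Med10 (0.0676) and Dcun1d3 (0.0739), for Tfap2c Plekhg6 (0.0863) and Dlx6os1 (0.125), and for Runx1 Tusc3 (0.105) and Ppdpf (0.117). For Sox9 they were Trim68 (0.121) and Mob3b (0.126), and for Klf5 Tnfrsf11b (0.201) and Clec2f (0.227). Among the 7 factors the closest pairs were Tbx3 with Runx1 (0.225) and Trp63 with Sox9 (0.321), and the most distant was Runx1 with Klf5 (2.06). The AP-2 pair Tfap2a and Tfap2c was at 0.946. These distances rest on 3 lines with 2 libraries each, and they depend on the pseudocount: with 0.1, Socs7, Tusc3, Tnfrsf11b and Clec2f were again among the nearest 2, and the other 10 genes were not.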

How the data were processed

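The authors deposited 1 table of RPKM values, 1 column per library, per the file headers and the name of the table. STAR and the mm9 build are named in the submitters' processing notes. The counter, annotation, gene lengths, scaling total, use of strand and gene filter are not given in the sources used here. Coordinates and exon lengths are from GENCODE M21 (GRCm38) and were not used to read sequence.

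Here log2(RPKM + 1) was fitted with limma 3.58.1 in R 4.3.3 (eBayes with trend, all 6 libraries, line as the only term), for genes with at least 1 RPKM in at least 2 libraries. Two-sided p-values were adjusted by Benjamini-Hochberg within each comparison. The fit was tested on simulated data. The members, lists and tests were chosen with earlier results of these data known. Named from each list were the 3 genes with the largest change per comparison, and the 2 genes nearest in pattern to each factor. Cbfb, Runx2, Itga6 and Tfap2b, and the 6 genes under 1 RPKM, were chosen after their values were seen. So were the genes of the p63 list named as present in C57MG. Some genes of the p63 list are not reported here and are in none of its counts.

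Depth was estimated as the read total that put most low values times exon length within 0.15 of a whole number (77.97% to 80.46% of values, against 30.0% by chance). Estimated reads and floors cover counting error only, and the limits that define genes private to a line were set after seeing the data. Alternatives were a pseudocount of 0.1, no filter, a mean of at least 5 RPKM, quantile and median-ratio scaling, only the 4 libraries compared, no trend, robust variance, a replicate block and leaving out libraries. Python 3.11.15 was used for the rest.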

Additional observations from a re-analysis of the deposited data

How the results depend on the processing

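The 21 differences of the 7 factors were recomputed under 16 alternative settings, or 15 for Tbx3 and Tfap2c. Of the 330 resulting values, 299 kept direction and side of the threshold, 27 lost the call, 1 gained it and 3 changed sign. These values share the same libraries and are not independent. The sign changes were Runx1 between BC44 and C57MG without BC44 replicate 1 (-0.1107, and 0.2115 without BC44 replicate 2) and Tfap2a between HC11 and C57MG without C57MG replicate 1 (-0.0645, and 0.2025 without C57MG replicate 2), also when BC44 replicate 2 was left out too (-0.0645). The number of factors called between BC44 and HC11 was 3 to 5 when single libraries were left out, 3 without BC44 replicate 1 and 3 without BC44 replicate 2, against 6 with all, while the genes called there fell from 5129 to 3600 and 3694 without those 2 libraries. Leaving out both BC44 replicate 2 and C57MG replicate 1, chosen after the data were seen, gave 2 factors there, and called 2996 genes between BC44 and HC11 (5129 with all libraries) and 4875 between BC44 and C57MG (7713), with fewer samples in the fit. A mean of at least 5 RPKM left Tbx3 and Tfap2c untested and called 7 regulators between BC44 and HC11 and 7 between BC44 and C57MG (12 each in the main setting), with fewer genes tested. With a line reduced to 1 library, limma assumes that it varies like the others.

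The replicate number as a replicate block gave 5350 genes between BC44 and HC11, of which 5071 were among the 5129 called without it. Between BC44 and C57MG it gave 7875 (7672 of the 7713 without it), and between HC11 and C57MG 7721 (7527 of the 7590). It gave 6 factors called in each comparison, as without it. The libraries' deviations from their line means correlated across genes by 0.354, -0.0387 and 0.0379 for same-numbered libraries of BC44 and HC11, BC44 and C57MG, and HC11 and C57MG. Since 2 of the 3 are near 0 and each line has 2 libraries, the numbers were not taken to pair the libraries, although the first value is not near 0.

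Depth limits Tfap2c and Klf5 in C57MG, where they rest on an estimated 2 and 9 reads in all.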
